A study of Mus musculus with 24 samples.

Results

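H3K9ac regions were studied at the promoters of long noncoding RNAs (lncRNAs) that stand apart from any protein-coding promoter, in spheroids of 4T1 cells, mouse mammary carcinoma cells that form lung metastases. A region was a stretch of genome covered by overlapping peaks of the 12 H3K9ac libraries, on chromosomes 1 to 19 and X. It was taken as an lncRNA promoter region when at least 2 libraries called it, when it lay within 1 kb of a transcription start site of a lincRNA, antisense, processed transcript or other lncRNA gene of GENCODE vM21, and when it lay more than 5 kb from every protein-coding start site. These criteria kept 553 of 38586 regions. No measured level entered the choice beyond the calls themselves.

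The study compared 4 groups of 3 libraries: cells with a non-targeting scramble guide, CPT1a KO cells, CPT1a KO cells given 5 mM acetate, and KAT2a KO cells, all harvested as spheroids on day 5. All lines carried a doxycycline-inducible Cas9 and a lentiviral guide selected with puromycin. The labels do not say which guide of a gene was used, and the methods do not say whether these lines were pools or clones. The medium of the scramble, CPT1a KO and KAT2a KO groups held 75 µM palmitate, while for the acetate group the labels give only acetate and a figure legend of the study names palmitate. The series lists 24 samples, and the 12 input libraries were not analysed here. Nothing in the labels says whether the replicates came from separate cultures, so p-values measure the spread between these libraries, which may be technical.

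CPT1a carries long-chain fatty acids into mitochondria, where their oxidation yields acetyl-CoA, the donor of acetyl groups, and KAT2a (also called GCN5) is an acetyltransferase known to act on lysine 9 of histone H3. Acetylation at this position marks active promoters, including those of lncRNAs, which are made by the same polymerase as messenger RNAs but are not translated. Some lncRNAs scaffold nuclear bodies or silence neighbouring genes, others serve mainly as hosts of microRNAs or small nucleolar RNAs, and the role of most is unknown. A peak at a start site shows acetylated chromatin and not transcription, and no RNA was measured here.

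The promoters behind the results described below are shown here as windows from 250 bases before to 50 bases after the annotated start, read 5′ to 3′ on the strand of the gene from the GRCm38 genome. Capitals mark matches, on either strand, to a TATA box (TATAAA), the letters CCAAT, a GC box (GGGCGG), cyclic AMP response element (TGACGTCA), E-box (CACGTG), AP-1 site (TGANTCA), ETS site (CCGGAAG), NRF1 site (TGCGCA) or YY1 site (AAGATGG). The first 3 belong to lncRNA genes of the X chromosome whose regions ranked lower in CPT1a KO: Firre at chrX:50635017-50635316 (minus strand), Jpx at chrX:103493545-103493844 (plus strand) and Ftx at chrX:103616786-103617085 (minus strand).
Firre: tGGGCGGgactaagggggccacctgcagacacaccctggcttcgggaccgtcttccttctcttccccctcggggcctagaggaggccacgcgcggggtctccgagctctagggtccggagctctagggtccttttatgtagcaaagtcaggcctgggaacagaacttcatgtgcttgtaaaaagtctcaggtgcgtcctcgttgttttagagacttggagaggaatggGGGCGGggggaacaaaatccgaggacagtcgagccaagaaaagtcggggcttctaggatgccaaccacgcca
Jpx: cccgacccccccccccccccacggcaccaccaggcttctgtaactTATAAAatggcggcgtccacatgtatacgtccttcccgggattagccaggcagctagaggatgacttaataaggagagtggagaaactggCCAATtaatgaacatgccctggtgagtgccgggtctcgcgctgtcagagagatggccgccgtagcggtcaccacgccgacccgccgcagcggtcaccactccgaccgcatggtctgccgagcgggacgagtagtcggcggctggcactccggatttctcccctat
Ftx: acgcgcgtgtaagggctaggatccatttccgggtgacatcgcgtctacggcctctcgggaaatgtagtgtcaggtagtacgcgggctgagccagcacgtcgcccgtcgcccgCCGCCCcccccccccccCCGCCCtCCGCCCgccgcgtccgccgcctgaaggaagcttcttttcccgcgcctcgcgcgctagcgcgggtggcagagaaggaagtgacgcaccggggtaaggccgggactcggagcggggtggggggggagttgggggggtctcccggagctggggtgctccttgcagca
Both windows that follow are of regions that ranked higher in CPT1a KO, Mir17hg at chr14:115042629-115042928 (plus strand) and 6720427I07Rik at chr13:48546451-48546750 (minus strand).
Mir17hg: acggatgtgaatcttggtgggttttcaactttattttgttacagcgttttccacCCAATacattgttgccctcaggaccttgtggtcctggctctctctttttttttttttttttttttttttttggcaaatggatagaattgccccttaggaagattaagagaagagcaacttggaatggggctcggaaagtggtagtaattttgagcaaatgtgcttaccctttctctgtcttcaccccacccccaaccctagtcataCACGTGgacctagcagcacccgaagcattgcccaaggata
6720427I07Rik: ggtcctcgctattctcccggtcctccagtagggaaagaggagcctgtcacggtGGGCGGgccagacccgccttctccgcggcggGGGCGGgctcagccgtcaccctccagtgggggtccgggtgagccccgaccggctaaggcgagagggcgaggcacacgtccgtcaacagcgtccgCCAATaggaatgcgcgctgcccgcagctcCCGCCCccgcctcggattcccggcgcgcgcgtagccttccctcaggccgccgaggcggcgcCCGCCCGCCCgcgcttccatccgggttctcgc
Windows of 3 regions that ranked lower in both knockouts come next, Dubr at chr16:50732634-50732933 (minus strand), Platr16 at chr4:145410016-145410315 (plus strand) and Gm6634 at chr3:70807242-70807541 (minus strand).
Dubr: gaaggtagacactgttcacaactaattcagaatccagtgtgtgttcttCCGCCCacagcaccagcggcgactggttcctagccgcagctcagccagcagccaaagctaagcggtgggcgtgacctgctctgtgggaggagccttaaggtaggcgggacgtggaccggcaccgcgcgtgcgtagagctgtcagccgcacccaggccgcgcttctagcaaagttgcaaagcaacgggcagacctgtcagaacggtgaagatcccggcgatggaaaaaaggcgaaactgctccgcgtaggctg
Platr16: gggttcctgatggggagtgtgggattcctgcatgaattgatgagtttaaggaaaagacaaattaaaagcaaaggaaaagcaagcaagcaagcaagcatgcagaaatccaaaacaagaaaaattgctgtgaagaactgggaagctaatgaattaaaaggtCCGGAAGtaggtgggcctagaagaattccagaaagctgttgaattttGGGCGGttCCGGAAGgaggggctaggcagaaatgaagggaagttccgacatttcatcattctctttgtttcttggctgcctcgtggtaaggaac
Gm6634: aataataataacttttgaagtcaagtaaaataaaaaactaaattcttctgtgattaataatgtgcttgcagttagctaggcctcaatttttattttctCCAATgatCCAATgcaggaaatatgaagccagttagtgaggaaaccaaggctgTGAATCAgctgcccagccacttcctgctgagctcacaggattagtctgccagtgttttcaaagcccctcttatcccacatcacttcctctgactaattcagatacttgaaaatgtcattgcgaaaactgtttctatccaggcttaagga
The last window is that of Malat1 at chr19:5802622-5802921 (minus strand), whose region stood near the top of every list but 1.
Malat1: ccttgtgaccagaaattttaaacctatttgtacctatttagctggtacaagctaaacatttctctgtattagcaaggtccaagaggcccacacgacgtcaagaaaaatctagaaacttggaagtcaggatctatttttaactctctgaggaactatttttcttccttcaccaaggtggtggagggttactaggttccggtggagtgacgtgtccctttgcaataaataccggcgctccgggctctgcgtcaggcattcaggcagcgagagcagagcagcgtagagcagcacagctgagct
These promoters differ widely in CpG content. The 300-base window of 6720427I07Rik held 40 CG pairs, that of Ftx 36, that of Malat1 10 and that of Gm6634 a single one. Over the 513 different start sites of the lncRNA promoter regions, 16.6% of the windows held the AP-1 letters, against 7.81% of the 32851 RefSeq promoters of the same length and build. The GC box letters were found in 28.5% of the lncRNA windows and in 35.7% of the RefSeq promoters, the CCAAT letters in 37.4% of both, and the TATA letters in 12.7% and 13.6%. Both strands were searched, and none of the motifs contains another. A match to such short letters describes the window and not a bound factor.

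The 553 regions lay at the start sites of 520 different genes. The leading gene was a lincRNA in 356 regions, an antisense gene in 108 and a processed transcript in 89, and 493 of the leading genes carry only a clone-style or predicted name. In 380 regions a start site lay inside the region itself. No protein-coding gene body overlapped 446 of the regions, and the median distance to the nearest protein-coding start site was 30067 bp. Chromosome 17 held the most regions (51), chromosome X 20. A second region at another start of the same gene was found for 61 genes.

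In sequence, the lncRNA promoter regions lay between protein-coding promoters and distal regions, the latter being those more than 5 kb from any protein-coding or lncRNA start. Their median GC content was 48.3%, against 50.1% for 12287 protein-coding promoter regions and 47.5% for 7557 distal regions. An observed-to-expected CpG ratio above 0.6 was found in 12.7% of the lncRNA promoter regions, 25.3% of the protein-coding ones and 7.86% of the distal ones. The same order held for width, with medians of 1546, 2983 and 709 bp. All 12 libraries called 289 of the lncRNA promoter regions (52.3%), while 81.2% of the protein-coding and 18.4% of the distal regions were called in all of them.

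The level of a region was expressed as its rank, because the deposited fold enrichment (the pileup at the summit over the local background) was not scaled between libraries. Within each library, all called regions were ranked by their highest fold enrichment, and the rank was written as a percentile, 100 being the strongest. The median rank of the lncRNA promoter regions was 62.5, 47.4 and 55.6 in the 3 scramble libraries, 38.7, 43.6 and 30.7 in CPT1a KO, 40.1, 37.2 and 44.0 in CPT1a KO with acetate, and 41.8, 45.6 and 38.7 in KAT2a KO. In each of the 12 libraries it stood below that of the protein-coding promoter regions and above that of the distal regions. The difference from protein-coding promoters was -24.3 ± 4.33 percentile points (mean ± SD, n = 12), and a two-sided exact sign-flip permutation test over the 12 libraries gave p = 0.000488, the smallest it can give. Against distal regions the difference was 17.5 ± 1.09 percentile points (mean ± SD, n = 12), with the same p by the same exact test. The level is the highest value in a region, and median width followed the same order as rank. It was 2983 bp for protein-coding, 1546 bp for lncRNA promoters and 709 bp for distal regions. The part of width in these differences was not tested. The lists held 18140 to 27364 called regions in scramble and 12613 to 20101 in the other libraries, and a percentile among all called regions moves with the length of the list, so these medians were compared within libraries only.

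**Figure D1:**
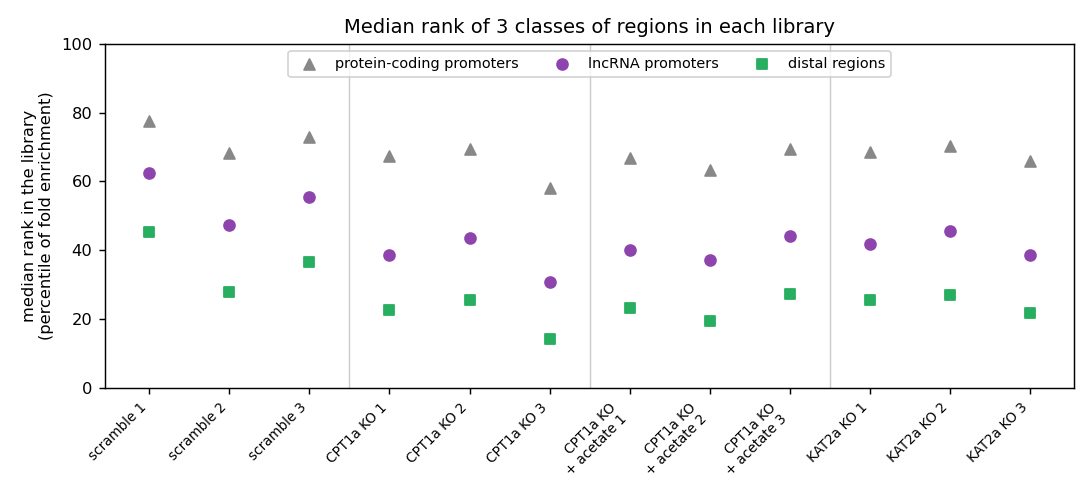
Median rank (y axis, percentile of fold enrichment among all regions called in the library) of protein-coding promoter regions (triangles), lncRNA promoter regions (circles) and distal regions (squares) in each of the 12 libraries (x axis). The lncRNA promoters lie between the other classes in every library, from 30.7 in CPT1a KO replicate 3 to 62.5 in scramble replicate 1.

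The libraries differed in depth and group, which touches every comparison. The calling depth, the mean fragment coverage recovered from the deposited values, was 2.10 ± 0.364 in scramble, 1.27 ± 0.626 in CPT1a KO, 1.34 ± 0.632 in CPT1a KO with acetate and 1.503 ± 0.423 in KAT2a KO (SD, n = 3 each), and CPT1a KO replicate 3 was the shallowest at 0.554. Depth, library and group cannot be told apart where they move together. Peak lists do not show whether the targeted genes were edited. Of the markers examined, 9 of 10 epithelial genes had a promoter peak in all 12 libraries, and none of 5 immune and 4 endothelial genes had one in any. Among 5 fibroblast genes, Pdgfra had a promoter peak in all 12 libraries, Col1a1 in 11 and the other 3 in none.

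Similar numbers of lncRNA promoter regions were called in the 4 groups. The scramble libraries called 467, 400 and 421 of them, the CPT1a KO libraries 439, 463 and 305, the acetate libraries 434, 366 and 450, and the KAT2a KO libraries 472, 482 and 430. In these counts the groups overlapped throughout. As a share of all regions called they did not, with 1.71% to 2.21% in the scramble libraries. The shares were 2.41% to 2.49% in CPT1a KO, 2.37% to 2.54% with acetate and 2.40% to 2.54% in KAT2a KO. CPT1a KO differed from scramble by -27 regions (402 ± 85.1 against 429 ± 34.3, SD, n = 3 each, exact permutation test, p = 0.80), KAT2a KO by 32.0 (461 ± 27.6, p = 0.20 by the same exact test), and the acetate group from CPT1a KO by 14.3 (417 ± 44.6, exact p = 0.90). The 3 p-values adjusted together were 0.90, 0.60 and 0.90, and 3 libraries against 3 cannot give less than 0.10. The other 9 libraries, pooled, differed from scramble by -2.56 regions (exact permutation test over 220 assignments, p = 0.95). All these tests count calls that also chose the regions, so they are a description only.

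At equal depth the order changed. When the peaks of every list were scaled to a calling depth of 0.55 and kept at a -log10 p of 5 or more, scramble libraries kept 294, 283 and 275 lncRNA promoter regions, CPT1a KO libraries 338, 359 and 305, acetate libraries 324, 349 and 310, and KAT2a KO libraries 338, 379 and 367. Each of the 9 other libraries then held more than each scramble library, a difference of 57 regions (exact permutation test, p = 0.0045, the smallest it can give). The regions were chosen by calls in these same libraries, 9 of them outside scramble. This p-value is thus a description and no support for a difference. Protein-coding promoters moved in the same direction, from 78.8% ± 0.736 called in scramble to 84.9% ± 1.78 in CPT1a KO and 86.3% ± 0.958 in KAT2a KO (SD, n = 3 each), as did distal regions, from 20.3% ± 2.32 to 28.9% ± 7.43 and 34.2% ± 4.90. The increase was thus not particular to lncRNA promoters.

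**Figure D2:**
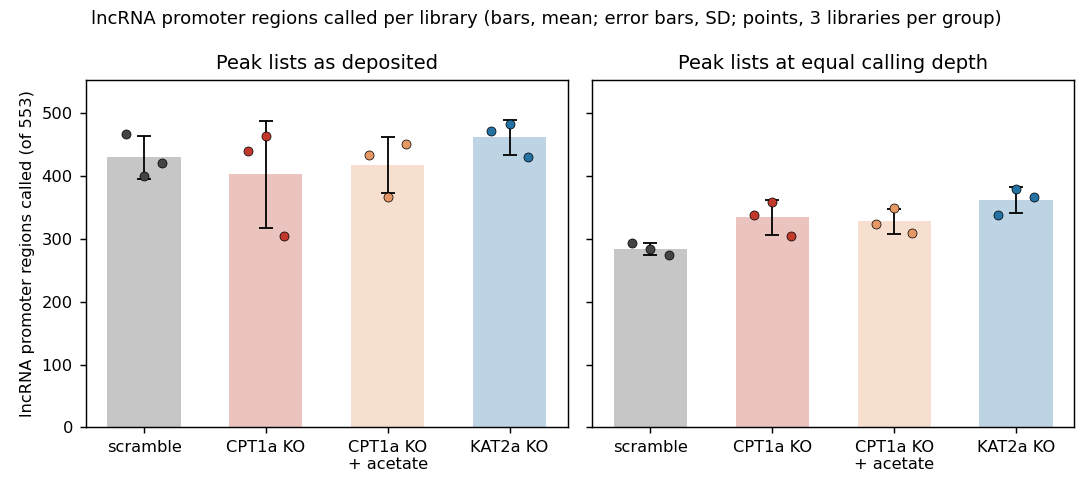
Number of lncRNA promoter regions called in each library (y axis, of 553) by group (x axis), in the lists as deposited (left) and scaled to equal calling depth (right). Points are libraries, bars means and error bars SD (n = 3 per group). The groups overlap on the left, while on the right the scramble libraries, at 275 to 294, lie below the other 9, at 305 to 379.

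Some lncRNA promoter regions were found in every library of a group and in no library of another, that is in 3 of 3 against 0 of 3. These counts are given without a test, each beside the share of all 24714 regions called in 2 or more libraries that met the same criterion. CPT1a KO libraries called 3 regions that no scramble library called (background 0.299%), and scramble libraries called 12 that no CPT1a KO library called (background 3.26%). KAT2a KO libraries called 10 that scramble did not (background 1.82%), and scramble called 4 that KAT2a KO did not (background 2.52%). Acetate libraries called 2 that CPT1a KO did not (background 0.166%), and no region was called in CPT1a KO alone of this pair (background 0.0243%). The shares of the 553 regions were 0.542% and 2.17% for CPT1a KO, 1.81% and 0.723% for KAT2a KO, and 0.362% and 0% for acetate, in the same order. At equal depth, 12 regions were called in CPT1a KO and not in scramble (2.17%, background 2.52%) and 26 in KAT2a KO and not in scramble (4.70%, background 4.05%), while no region was called in scramble alone in either comparison (backgrounds 0.206% and 0.0728%). Between acetate and CPT1a KO, 1 region was then called in each group alone (backgrounds 0.0809% and 0.235%).

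The named regions behind these counts were narrow, at 418 to 1355 bp, and their level varied. Among all regions called in a library, their percentile ran from 0.293 (Gm15247, CPT1a KO replicate 3) to 58.1 (Gm48684, scramble replicate 1). Ptgs2os2, a noncoding gene 63462 bp from Ptgs2 (the gene of cyclooxygenase-2), was called at chr1:150163794-150164883 with a fold enrichment of 6.47, 4.75 and 7.84 in the scramble libraries, in no CPT1a KO or acetate library, and in KAT2a KO replicates 1 and 2 at 5.28 and 8.44. AC162612.1 (chr19:21104916-21105857) had a fold enrichment of 5.81, 5.11 and 5.49 in scramble, 4.89, 4.55 and 2.86 with acetate and 3.85, 4.45 and 6.75 in KAT2a KO, and was called in no CPT1a KO library. Gm20139, 124454 bp from Tnfaip3 (an inhibitor of NF-κB signalling), showed 6.44, 5.22 and 5.33 in scramble, 9.35, 8.79 and 5.46 in KAT2a KO, no call in CPT1a KO and a single call of 4.53 with acetate. These 3 regions were missing from CPT1a KO but present in most or all KAT2a KO libraries. 4930555B11Rik, which shares its region with BB557941, was the fourth of the strongest scramble regions absent from CPT1a KO, at 7.93, 6.23 and 5.52. Unlike the other 3, it was called in only 1 KAT2a KO library (4.92), and in no acetate library.

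Gm48684 (chr13:107033929-107035283) was absent only from KAT2a KO, with fold enrichments of 7.93, 7.66 and 8.97 in scramble, 13.4, 9.78 and 6.73 in CPT1a KO and 9.37, 6.63 and 7.91 with acetate. The other 3 regions called in scramble and not in KAT2a KO, at Junos (an antisense gene named for Jun), Gm26623 and Gm47467, were called in no other group, with fold enrichments of 4.02 to 5.38. Junos had 3 further lncRNA promoter regions nearby. In the reverse direction, 1700120G07Rik had 4.53, 10.6 and 5.76 in CPT1a KO and 7.74, 4.56 and 8.72 with acetate, with no call in scramble or KAT2a KO. 2810429I04Rik (6.34, 7.04 and 4.88 in CPT1a KO) and Gm15247 (4.77, 3.95 and 3.64) were the other regions called in CPT1a KO and not in scramble. 4632428C04Rik, 55283 bp from Hes1 (a transcriptional repressor of the Notch pathway), had 9.73, 6.13 and 6.18 in KAT2a KO and no scramble call. Gm14012, 1810019N24Rik and the region shared by Gm46204 and Gm35696 were also named among those called in KAT2a KO and not in scramble, at 3.67 to 9.13. Gm16092 was called in the acetate libraries alone, at 3.59, 4.44 and 2.89.

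For the 289 lncRNA promoter regions called in all 12 libraries, levels could be compared. They were ranked within each library among the 12098 regions that all libraries called, and the group means of these ranks were compared with limma, with Benjamini-Hochberg adjustment over all 12098 regions and a threshold of 0.05. The remaining 264 lncRNA promoter regions have no such rank.

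After loss of CPT1a, 44 of the 289 ranked lncRNA promoter regions ranked lower than in scramble (limma, background 7.13%) and 14 ranked higher (background 6.55%). The shares were 15.2% and 4.84%. Distal regions gave 16.0% lower and 2.52% higher, protein-coding promoters 5.33% and 7.33%, so that the lncRNA promoters stood nearer to the former in these shares. The median rank difference of the lncRNA promoter regions was -5.57 percentile points (quartiles -15.0 and 2.08), against 0.09 over all ranked regions, 1.33 for protein-coding promoters and -3.97 for distal regions. The median rank of the ranked lncRNA promoters was 38.1, 33.7 and 36.5 in the scramble libraries and 27.7, 27 and 28.7 in CPT1a KO, so that the groups did not overlap. Regions whose 3 ranks in CPT1a KO all lay below those in scramble numbered 79 (background 16.2%), and 30 had all 3 above (background 16.7%). The limma counts moved with the processing, to 92 lower and 27 higher when ranked by -log10 p. They were 27 lower without scramble replicate 1 and 5 higher without scramble replicate 3. No shares over all regions are given for these settings.

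The differences moved with base composition. Among lncRNA promoter regions under 45% GC, 30 of 73 ranked lower (background in this class 25.3%) and none higher (background 0.986%), with a median difference of -20.0 points. From 45% to 50% GC, 11 of 108 ranked lower (background 7.51%) and 2 higher (background 3.03%), with a median of -7.38. From 50% to 55%, 3 of 84 ranked lower (background 2.48%) and 7 higher (background 6.51%), with a median of -1.80. From 55% upward, none of 24 ranked lower (background 0.599%) and 5 higher (background 19.2%), with a median of 10.1. The medians over all ranked regions were -12.9, -3.22, 3.43 and 9.80 points in the same classes. When the GC trend of each library was removed before the comparison, 15 lncRNA promoter regions ranked lower (background 3.65%) and 17 higher (background 4.75%), and their median difference was -2.87 points. The excess of lower over higher calls was therefore not seen without the GC trend. With calling depth as a covariate, 22 ranked lower (background 3.21%) and 3 higher (background 2.83%).

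**Figure D3:**
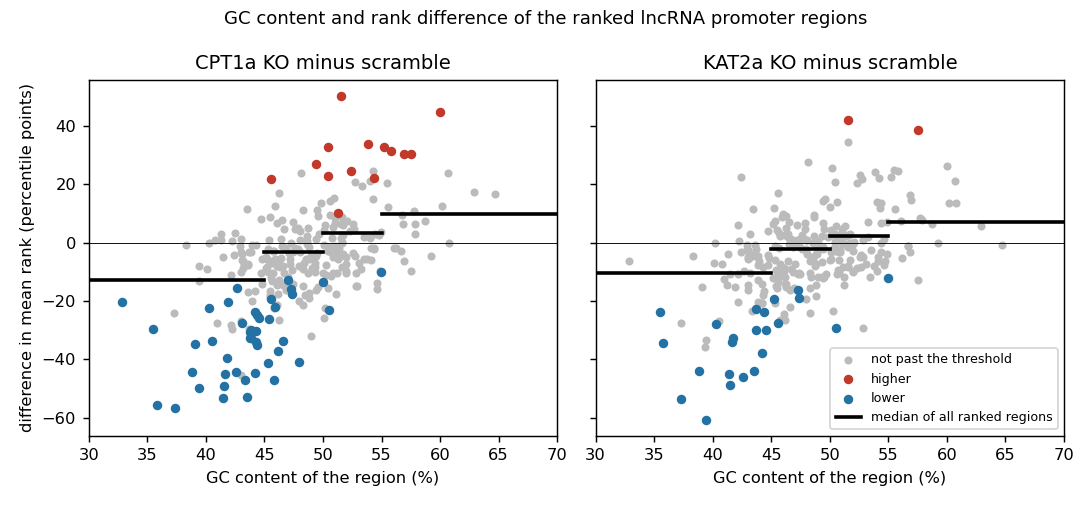
GC content of each of the 289 ranked lncRNA promoter regions (x axis, %) against its difference in mean rank (y axis, percentile points) for CPT1a KO minus scramble (left) and KAT2a KO minus scramble (right). Regions that ranked higher (red) and lower (blue) by limma lie mostly at higher and lower GC content respectively, and the bars give the medians of all 12098 ranked regions in 4 GC classes, which rise from -12.9 to 9.80 on the left.

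Fewer regions passed the threshold after loss of KAT2a. Of the 289 ranked lncRNA promoter regions, 23 ranked lower than in scramble (limma, background 3.43%) and 2 higher (background 2.41%). The median difference was -4.21 points, against 0.03 over all ranked regions, 1.004 for protein-coding promoters and -2.64 for distal regions. Ranks did not overlap in 68 regions that were lower (background 15.1%) and in 24 that were higher (background 14.6%). Under 45% GC, 17 of 73 ranked lower (background in this class 13.9%) and none higher (background 0.123%). From 45% to 50% GC, 4 of 108 ranked lower (background 2.96%) and none higher (background 1.41%), from 50% to 55%, 2 of 84 lower (background 1.2%) and 1 higher (background 2.63%), and from 55% upward, none of 24 lower (background 0.349%) and 1 higher (background 6.14%). With calling depth as a covariate 15 ranked lower (background 1.69%) and 1 higher (background 1.09%), and with the GC trend removed 7 ranked lower (background 1.52%) and 7 higher (background 1.77%). Ranking by -log10 p gave 59 lower and 22 higher, and leaving out KAT2a KO replicate 1 gave 12 lower. No shares over all regions are given for the latter settings. Both knockouts were compared with the same 3 scramble libraries, so their calls are not independent. The 44 regions lower in CPT1a KO had a median difference of -32.6 points there and of -22.3 points in KAT2a KO, where 21 of them also passed the threshold.

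Acetate did not move any lncRNA promoter region past the threshold. By limma, 0 of 289 regions ranked higher (background 0%) and 0 lower (background 0%) in CPT1a KO with acetate than in CPT1a KO, the smallest adjusted p was 0.31, and 38 regions had an unadjusted p under 0.05 (13.1%, against 8.60% of all ranked regions). Removing the GC trend also left 0 in both directions (background 0% higher and 0.00827% lower). The median difference was 0.69 points, against -0.37 over all ranked regions. Ranks did not overlap in 28 regions that were higher (background 5.79%) and in 25 that were lower (background 8.51%). The 44 regions that ranked lower in CPT1a KO had a median of group means of 54.4 in scramble, 21.0 in CPT1a KO and 31.8 with acetate, and 34 of them stood higher with acetate than without. For the 14 that ranked higher the medians were 24.6, 53.3 and 36.9, and 13 stood lower with acetate. These regions were chosen by their level in CPT1a KO, which is also the control of the acetate comparison, so these values are a description and support nothing.

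The gene lists used for known lncRNAs matched 29 regions, 25 of them ranked. In CPT1a KO, 3 of these ranked lower (background 7.13%) and 1 higher (background 6.55%). In KAT2a KO, 2 ranked lower (background 3.43%) and none higher (background 2.41%). With acetate none passed the threshold (background 0% in both directions). Counts this small among 25 regions were not tested against these shares.

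X-linked lncRNA genes were among the lower ones. Firre (chrX:50633729-50636209) makes a nuclear RNA known for organising chromatin around its own locus. It ranked 44.2, 45 and 47.1 in scramble, 23.1, 13.1 and 22.5 in CPT1a KO, 16.4, 24.9 and 16.9 with acetate, and 17.2, 16.9 and 12.5 in KAT2a KO. Every scramble library stood above all 9 others. The difference was -25.8 ± 4.65 points in CPT1a KO (SE, limma adjusted p = 0.0032) and -29.9 ± 4.65 in KAT2a KO (adjusted p = 0.0026). With the GC trend removed the former was -12.2 points (adjusted p = 0.085) and the latter kept its call at -19.1 points (adjusted p = 0.027).

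Jpx and Ftx are noncoding genes of the X inactivation centre, and Jpx is known as an activator of Xist. Jpx (chrX:103491843-103496056) ranked 99.4, 92.6 and 99.3 in scramble, 83.1, 67.7 and 68.8 in CPT1a KO, 71.5, 68.8 and 71.5 with acetate, and 74.7, 79.8 and 74.7 in KAT2a KO. Its difference in CPT1a KO was -23.9 ± 6.61 points (SE, limma adjusted p = 0.028), and in KAT2a KO it was -20.7 points (adjusted p = 0.076). At Ftx (chrX:103615221-103618156) the ranks were 84.8, 53.7 and 82.1 in scramble, 51.9, 46.8 and 31.3 in CPT1a KO, 50.8, 38.4 and 48.6 with acetate, and 48.8, 57 and 52.5 in KAT2a KO. The difference in CPT1a KO was -30.2 ± 9.52 points (SE, limma adjusted p = 0.047), and KAT2a KO overlapped scramble (-20.8 points, adjusted p = 0.20). Neither call held with the GC trend removed (Jpx, -10.3 points, adjusted p = 0.37, Ftx, -16.7 points, adjusted p = 0.19). Both calls were also lost with calling depth as a covariate (adjusted p = 0.15 and 0.29). The call at Jpx was lost without scramble replicate 1 or 3 or CPT1a KO replicate 2 or 3 (adjusted p 0.071 to 0.090), and that at Ftx without any 1 library other than scramble replicate 2 (adjusted p 0.053 to 0.16). A second Ftx region (chrX:103621360-103622350) was called in 10 libraries with fold enrichments of 5.84 to 11.3.

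On chromosome X as a whole, 5 of 12 ranked lncRNA promoter regions were lower in CPT1a KO and 3 in KAT2a KO. None of the 12 ranked higher in either, and their median differences were -13.5 and -12.6 points. Of the 313 other ranked regions of that chromosome, 7.67% were lower in CPT1a KO and 6.39% in KAT2a KO, with median differences of 1.28 and -3.82 points. In the same order, 34 and 5 of them ranked higher. Among the 277 ranked lncRNA promoter regions on autosomes, 14.1% were lower in CPT1a KO and 7.22% in KAT2a KO, with medians of -5.53 and -3.97 points. The number of X chromosomes in each line was not measured.

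The strongest increase was at 6720427I07Rik (chr13:48544093-48547690), a lincRNA gene 30523 bp from the nearest protein-coding start. It ranked 48.3, 46.6 and 33.8 in scramble, 97.8, 87.8 and 94.1 in CPT1a KO, 82.8, 78.0 and 74.8 with acetate, and 83.3, 82.1 and 89.6 in KAT2a KO. All 9 libraries stood above the scramble libraries. The acetate libraries lay below the CPT1a KO ones, but the difference missed the threshold (-14.7 points, limma adjusted p = 0.60). The region was named for its level in CPT1a KO, so this lower level supports nothing. The difference from scramble was 50.3 ± 7.20 points in CPT1a KO (SE, limma adjusted p = 0.00098) and 42.1 ± 7.20 in KAT2a KO (adjusted p = 0.0047). Its promoter, printed above, is the one with 40 CG pairs.

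Mir17hg (chr14:115039646-115043614), the host gene of an oncogenic microRNA cluster, ranked 49.3, 35.6 and 32.4 in scramble, 88.2, 77.3 and 86.1 in CPT1a KO, 78.7, 58.4 and 65.6 with acetate, and 64.7, 67.2 and 64.7 in KAT2a KO. Its region had a GC content of 60%. The difference was 44.8 ± 8.46 points in CPT1a KO (SE, limma adjusted p = 0.0041) and 26.4 points in KAT2a KO, where it missed the threshold (adjusted p = 0.077), although all 3 KAT2a KO libraries stood above scramble. The call in CPT1a KO held with the GC trend removed, at 29.0 points (adjusted p = 0.031).

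Gm12974, the region of A330023F24Rik and Gm16897, Gm10685 and Gm11205 completed the list of largest increases in CPT1a KO, by 31.5 to 33.7 points (limma adjusted p 0.015 to 0.042). Each of these 4 calls was lost with the GC trend removed (adjusted p 0.070 to 0.097), with calling depth as a covariate (adjusted p 0.081 to 0.23) and without scramble replicate 3 (adjusted p 0.052 to 0.083). The 4 were also lost, in part, without other libraries: scramble replicate 2 for Gm12974 (0.055), CPT1a KO replicate 1 for A330023F24Rik (0.052) and CPT1a KO replicate 3 for Gm10685 (0.060), and any library outside KAT2a KO for Gm11205 (0.053 to 0.12). The other region that ranked higher in KAT2a KO was that of Tmem250-ps and 1810012K08Rik (chr2:26138811-26141719), with ranks of 19.4, 38.6 and 26.7 in scramble and 68.0, 60.6 and 71.7 in KAT2a KO. Its difference was 38.5 ± 9.08 points (SE, limma adjusted p = 0.022), and the call was lost with the GC trend removed (adjusted p = 0.069), with calling depth as a covariate (adjusted p = 0.075) and without scramble replicate 1 or 3 or KAT2a KO replicate 1 or 3 (adjusted p 0.066 to 0.094). In CPT1a KO it ranked 69.5, 40.9 and 65.9, a difference of 30.5 points (limma adjusted p = 0.037). That call was also lost with the GC trend removed (adjusted p = 0.20), with calling depth as a covariate (adjusted p = 0.16) and with the replicate block (adjusted p = 0.0501). It was lost as well without scramble replicate 1 or 3, CPT1a KO replicate 1 or 3 or acetate replicate 1 (adjusted p 0.0505 to 0.14).

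Several decreases passed the threshold in both knockouts. Dubr (chr16:50730388-50733852), an lncRNA gene known from muscle differentiation, ranked 83.1, 78.2 and 93.5 in scramble, 42.3, 39.2 and 40.5 in CPT1a KO, 35.5, 34.4 and 41.3 with acetate, and 41.4, 32.8 and 42.1 in KAT2a KO. The scramble libraries lay above all others by a wide gap. The difference was -44.2 ± 7.45 points in CPT1a KO (SE, limma adjusted p = 0.0022) and -46.2 ± 7.45 in KAT2a KO (adjusted p = 0.0032). Platr16 (chr4:145409729-145412971), named as a pluripotency-associated transcript, ranked 85.6, 58.3 and 70.2 in scramble, 21.2, 26.3 and 19.3 in CPT1a KO, 30.9, 25.3 and 41.3 with acetate, and 17.5, 26 and 24.5 in KAT2a KO. Its differences were -49.1 ± 7.38 points in CPT1a KO (SE, limma adjusted p = 0.0011) and -48.7 ± 7.38 in KAT2a KO (adjusted p = 0.0022). Both regions kept both calls under every alternative run, with smaller differences once the GC trend was removed. Those of Dubr were then -23.2 and -30.5 points (adjusted p = 0.046 and 0.027), and those of Platr16 -25.7 and -30.4 points (adjusted p = 0.037 and 0.032).

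9430037G07Rik (chr9:88597182-88599602), a lincRNA gene 16035 bp from the start of Trim43a, ranked 91.8, 89.5 and 81.6 in scramble, 38.6, 36.5 and 29.6 in CPT1a KO, 56.3, 51.4 and 48.6 with acetate, and 42.4, 51.3 and 37.8 in KAT2a KO. Its differences of -52.7 and -43.8 points (limma adjusted p = 0.0011 and 0.0058) also held under every alternative. Gm44734 (chr7:73606571-73609698), 64741 bp from the start of the chromatin remodeller gene Chd2, ranked 98.8, 93.1 and 98.2 in scramble and 45.4, 45.8 and 39.4 in CPT1a KO, a difference of -53.2 ± 9.14 points (SE, limma adjusted p = 0.0024) that became -29.8 points with the GC trend removed (adjusted p = 0.045). Its call in KAT2a KO (-45.0 points, adjusted p = 0.012) was lost with the GC trend removed (adjusted p = 0.10) and without KAT2a KO replicate 1 (adjusted p = 0.054).

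The calls at Gm14636 and Gm6634 were lost once the GC trend was removed. Gm14636 (chrX:19163012-19169918, 37.3% GC) ranked 87.3, 67.9 and 87.0 in scramble, 23.1, 21.9 and 27.2 in CPT1a KO and 25.6, 29.9 and 25.9 in KAT2a KO. Its difference of -56.6 ± 7.19 points in CPT1a KO (SE, limma adjusted p = 0.00063) became -22.8 points without the GC trend (adjusted p = 0.062), and -53.6 points in KAT2a KO became -27.1 (adjusted p = 0.053). Gm6634 (chr3:70802063-70808012, 35.8% GC), 794450 bp from the nearest protein-coding start, ranked 99.2, 97.8 and 99.1 in scramble, 51.8, 44.7 and 33.0 in CPT1a KO, 64.3, 58.4 and 65.6 with acetate, and 58.0, 70.2 and 64.7 in KAT2a KO. The difference of -55.5 ± 7.91 points in CPT1a KO (SE, limma adjusted p = 0.00096) became -21.7 points without the GC trend (adjusted p = 0.074), and that of -34.4 points in KAT2a KO became -7.93 (adjusted p = 0.57). The call of Gm6634 in KAT2a KO was also lost with calling depth as a covariate (adjusted p = 0.075) and without scramble replicate 1 or 3 or KAT2a KO replicate 1 or 3 (adjusted p 0.050 to 0.075).

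The antisense region of Gm16579 and Gm43055, inside the protease gene Tmprss11e, and that of Nr6a1os, inside the nuclear receptor gene Nr6a1, completed the list. Gm16579 ranked 92.1, 49.0 and 85.7 in scramble, 25.6, 25.8 and 25.7 in CPT1a KO, 19.4, 10.6 and 8.33 with acetate, and 24.8, 8.01 and 12.2 in KAT2a KO. Its differences were -49.9 and -60.6 points (limma adjusted p = 0.0031 and 0.0020), and both calls were lost with the GC trend removed (adjusted p = 0.28 and 0.050). Nr6a1os ranked 17.1, 35.0 and 39.4 in CPT1a KO (-44.2 points, limma adjusted p = 0.0075, and 0.49 with the GC trend removed). It fell from 87.3, 55.2 and 81.4 in scramble to 26.3, 23.2 and 42.1 in KAT2a KO (-44.1 points, limma adjusted p = 0.014), a call lost with the GC trend removed (adjusted p = 0.27) and without scramble replicate 1 or KAT2a KO replicate 1 or 2 (adjusted p 0.054 to 0.057). Since the assay does not read strand, acetylation at an antisense start inside a gene cannot be assigned to either transcript.

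**Figure D4:**
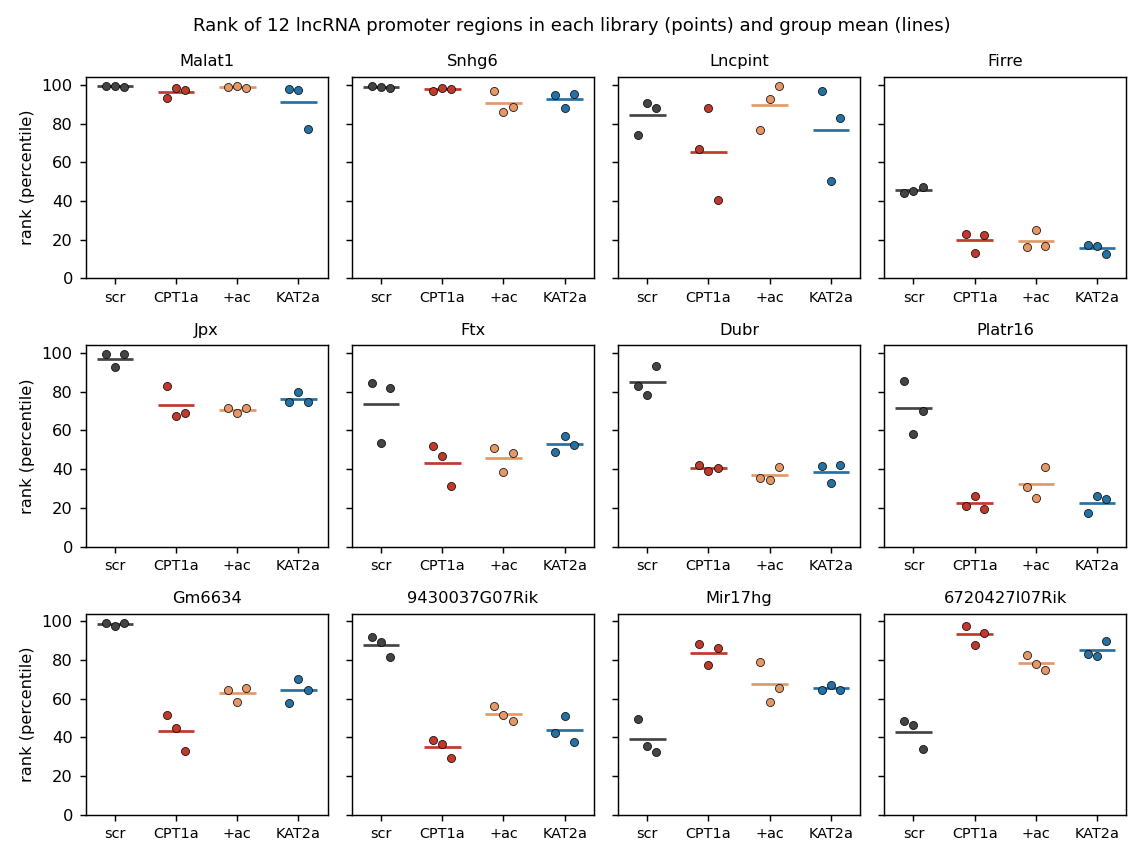
Rank of 12 lncRNA promoter regions (y axis, percentile among the 12098 regions called in all libraries) in the scramble (scr), CPT1a KO (CPT1a), CPT1a KO with acetate (+ac) and KAT2a KO (KAT2a) groups. Points are the 3 libraries of a group and lines their means. Malat1 and Snhg6 stay near the top in nearly every library, Firre, Jpx, Ftx, Dubr, Platr16, Gm6634 and 9430037G07Rik lie highest in scramble, and Mir17hg and 6720427I07Rik lie lowest in scramble.

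The highest acetylation stood at a few abundant or wide loci. AL805899.1 (chr4:88928146-88961521), a lincRNA region 33376 bp wide, ranked between 92.0 and 100.0 in the 12 libraries. 1810026B05Rik (chr7:73550753-73560868), known as Chaserr and lying upstream of Chd2, ranked between 86.4 and 99.9. Malat1 (chr19:5795156-5807591), the abundant RNA of nuclear speckles, ranked 99.3, 99.3 and 99.2 in scramble, 93.1, 98.2 and 97.4 in CPT1a KO, 98.7, 99.3 and 98.5 with acetate, and 97.8, 97.5 and 77.4 in KAT2a KO, so that 1 KAT2a KO library stood apart. Ptpmt1, a symbol of a mitochondrial phosphatase gene that this annotation classes as a processed transcript, 1110038B12Rik near Hspa1b and Gm20732 followed with mean ranks of 93.5, 94.0 and 91.7, and Snhg5 and Snhg6 are described with the small nucleolar RNA hosts. None of the 6 regions without the Snhg genes passed the threshold in any comparison (limma adjusted p 0.36 or more).

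Neat1, which scaffolds paraspeckles, shares its region with Frmd8os (chr19:5840140-5852894) and ranked between 60.3 and 99.8. Libraries of both knockouts overlapped those of scramble, and neither difference passed the threshold (limma adjusted p = 0.78 and 0.58). 2900097C17Rik, the mouse Norad gene whose RNA binds Pumilio proteins, had a mean rank of 53.8 and ranged from 30.7 to 73.1, with differences of 4.66 and 2.62 points (adjusted p = 0.83 and 0.93).

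The 5 small nucleolar RNA host regions were high. Snhg6 and Snhg5 had mean ranks of 94.9 and 90.7, Snhg8 of 85.6, Snhg17 (with Gm23925) of 84.5 and Snhg20 of 70.7. Only Snhg8 passed the threshold, in KAT2a KO. It ranked 97.5, 98.4 and 97.1 in scramble and 69.1, 63.1 and 78.4 in KAT2a KO, a difference of -27.4 ± 6.68 points (SE, limma adjusted p = 0.026), with 79.9, 84.6 and 92.4 in CPT1a KO (adjusted p = 0.24). The call was lost with the GC trend removed (adjusted p = 0.15) and without any 1 scramble library or KAT2a KO replicate 1 or 2 (adjusted p 0.055 to 0.079).

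Among the cancer and DNA damage genes no region passed the threshold. Dancr, known from many tumours, ranked 97.7, 94.9 and 98.0 in scramble and 97.3, 66.4 and 31.5 in CPT1a KO, so that 2 CPT1a KO libraries lay below all scramble libraries, with a limma adjusted p of 0.079. Pvt1, the neighbour of Myc, had a mean rank of 66.7 and differences of -3.53 and -0.92 points. Lncpint, a p53-induced gene, had regions with mean ranks of 79.0 and 73.3. Dleu2, host of tumour-suppressive microRNAs, had regions of 81.4 and 83.9, and the latter, shared with Gm27017, ranked 97.9, 98.8 and 96.6 in scramble and 43.3, 53.2 and 89.6 in KAT2a KO (-35.8 points, adjusted p = 0.051).

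The remaining listed genes did not pass the threshold either. The imprinted silencing RNAs Kcnq1ot1 and Airn had mean ranks of 69.0 and 13.7. Of the microRNA hosts, Mir670hg and Mir155hg had mean ranks of 71.8 and 27.8, and Mirt1, known from the injured heart, stood at 7.55. Lncppara ranked 99.8, 99.7 and 99.8 in scramble and between 55.5 and 98.9 in the other 9 libraries, so that the groups did not overlap, but its differences of -17.2 and -18.3 points missed the threshold (limma adjusted p = 0.29 and 0.31). Bvht, known from cardiac commitment, had a mean rank of 17.7. Both Gm12840 regions were called in only 5 and 3 libraries, with fold enrichments of 3.94 to 6.96.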

How the data were processed

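H3K9ac ChIPmentation, in which transposase tags the immunoprecipitated chromatin, was analysed from 12 peak lists, 1 per library, with no pooling of replicates. Groups and replicate numbers came from the labels. Per their methods, the authors trimmed reads, aligned them to mm10 with BWA and removed duplicates, whereas the submitters' processing notes name Bowtie2 and MACS2, so the aligner is uncertain. The use of the inputs in peak calling is not given in the sources used here, and the labels and methods name different catalogue numbers for the antibody. The deposited score is 10 times the -log10 q rounded down. The deposited fold enrichment is a ratio of summit pileup to local background, and both -log10 columns, for p and for q, were written by the authors' caller (smallest -log10 q 2.00052). None was scaled between libraries, so the spike-in that the methods describe was not used here and a change in total H3K9ac could not be measured.

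Peaks overlapping by 1 bp were merged, and 11 to 45 peaks per library on chromosome Y were left out. Depth was not stated. The calling depth was recovered from fold enrichment and p under the formulas of MACS2, for peaks with a -log10 p below 60, and limits which weak regions a list can hold. Windows, GC content and motifs came from GRCm38, annotation from GENCODE vM21, and promoters of all genes from RefSeq (243 of 491 leading symbols matched). Ranks within a library were fitted with limma 3.58.1 in R 4.3.3 with an intensity trend over all 4 groups, and tests per library were exact. Scripts ran in Python 3.11.15 and were tested on simulated data.

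Named regions were, by a rule: members of 8 lists of known lncRNA genes, the 6 largest rank differences per direction and comparison among those past the threshold, the 8 highest mean ranks, and the 4 strongest regions per direction called in 3 of 3 libraries against 0 of 3. The regions, lists and tests were chosen with earlier results of these data known. Alternatives were ranking by -log10 p, removing the GC trend in 50 bins, normal scores, depth as covariate, the replicate number as block, a -log10 q of 5 or more, gene-level start sites, a peak cover of 0.5 of the region, equal depth of 0.55, non-overlapping ranks and leaving out each library. No residual pairing was assumed between groups.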

Additional observations from a re-analysis of the deposited data

How the results depend on the processing

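The lower level of lncRNA than protein-coding promoters kept its sign under every alternative (-25.4 to -20.8 points) and without any 1 library (-25.2 to -23.9, exact p = 0.00098, the smallest that 11 libraries can give). No alternative adjusted for the width of the regions. Differences in regions called reversed at equal depth for CPT1a KO (50), for acetate (-6.33) and for the 9 libraries against scramble (57), the last also at a -log10 q of 5 or more (0.667) and with gene-level start sites (0.111). Leaving out 1 library gave -57.3 to 21.7 in CPT1a KO (reversed without its replicate 3), 17.3 to 50.8 in KAT2a KO, -34.3 to 44.7 with acetate (reversed without CPT1a KO replicate 3 or acetate replicate 3) and -17.2 to 16.3 for the 9 libraries (reversed without CPT1a KO replicate 3, acetate replicate 2 or scramble replicate 1).

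Counts past the threshold changed in CPT1a KO to 92 lower and 27 higher when ranked by -log10 p, to 15 lower with the GC trend removed, to 22 and 3 with depth as covariate, and to 79 and 30 by non-overlapping ranks. In KAT2a KO they changed to 59 lower and 22 higher, 7 and 7, 15 and 1, and 68 and 24 under the same alternatives, and to 4 higher with gene-level start sites. Non-overlapping ranks gave 28 higher and 25 lower with acetate, where limma gave 0 throughout. Leaving out 1 library gave 27 to 45 lower and 5 to 14 higher in CPT1a KO (27 lower without scramble replicate 1, 5 higher without scramble replicate 3), 12 to 26 lower and 1 to 3 higher in KAT2a KO (12 without its replicate 1), and 0 to 0 with acetate. The median difference became -2.87 (CPT1a KO) and -1.25 (KAT2a KO) with the GC trend removed, and ranged from -6.38 to -4.86, -4.74 to -3.66 and 0.363 to 1.18 (acetate) without 1 library. The cause of these changes was not tested. For ranking by -log10 p, the replicate block and leaving out 1 library, no share over all regions is given. Those counts therefore cannot be read as particular to lncRNA promoters.

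Regions called in 3 of 3 libraries against 0 of 3 changed at equal depth to 12 in CPT1a KO and 0 in scramble, 26 in KAT2a KO and 0 in scramble, and 1 in acetate and 1 in CPT1a KO. They changed to 1 (CPT1a KO, not scramble) and 2 (scramble, not KAT2a KO) at a -log10 q of 5 or more, and to 4 (acetate, not CPT1a KO) with a cover of 0.5. Without 1 library, which loosens the criterion, they ranged from 3 to 17 and 12 to 28 (CPT1a KO and scramble), 13 to 25 and 4 to 16 (KAT2a KO and scramble), and 2 to 10 and 0 to 10 (acetate and CPT1a KO). Apart from equal depth, no share over all regions is given for these settings.

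Of 30 calls at named regions, 11 held under every alternative, 19 were lost with the GC trend removed, 9 with depth as covariate, 3 with the replicate block and 10 without scramble replicate 3. Same-numbered libraries did not deviate together (correlations of -0.0514 to 0.0783), so the numbers do not pair them. With the replicate block, 38 regions ranked lower and 10 higher in CPT1a KO, 21 and 2 in KAT2a KO, 0 with acetate, and differences in regions called had exact p of 0.75, 0.25 and 1.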

Other observations

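Regions that ranked lower and higher in CPT1a KO differed in composition. The 44 lower ones had a median GC content of 43.9% and a median CpG ratio of 0.302, the 14 higher ones 53.1% and 0.597, at similar median widths of 3218 and 3313 bp. LincRNA genes led 26 of the 44 and 12 of the 14, and 11 of the 44 and 1 of the 14 lay inside a protein-coding gene body. In the 300-base promoter windows, the GC box letters (GGGCGG, either strand) were found in 12 of 44 lower and 8 of 14 higher regions, and the median number of CG pairs was 7.5 and 25. Over the windows of all lncRNA promoter regions it was 8, and over all RefSeq promoters 7.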
